A study of Mus musculus with 24 samples.

Results

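The transcripts of 10 genes were followed in 24 RNA-seq libraries, namely 4 receptors of the ErbB family (Egfr, Erbb2, Erbb3 and Erbb4) and 6 ligands (Nrg1, Areg, Ereg, Hbegf, Tgfa and Btc). They were chosen by symbol, with earlier results of these data known, and all 10 were found among the 35275 genes listed for cultured cells and the 54532 genes listed for tumors. The libraries came from D2A1 and D2.1, related mammary tumor lines derived from hyperplastic alveolar nodules (the D2 series) of BALB/c mice. In the study, D2A1 is the proliferative line and D2.1 is the line that lies dormant. The 6 groups were D2A1 cells and D2.1 cells in culture (n = 3 each), D2A1 and D2.1 tumors of female BALB/c mice (n = 4 each), and D2A1 and D2.1 tumors of female SCID-beige mice (n = 5 each). The tumors had been grown in the mammary fat pad and, by the paper, were collected for sequencing at about the same volume. The paper calls these D2.1 tumors later-stage and reports that D2.1 tumors proliferate more with time. D2.1 tumors grow more slowly there, so line and time in the mouse cannot be told apart. SCID-beige mice lack T and B cells and have defective NK cells, but keep macrophages, endothelium and fibroblasts. The labels give no ages and no alleles beyond the strains, and each line stands for a single cell line. Each tumor library is one animal's tumor, whereas nothing states that the culture replicates were separate cultures, so p-values in culture may measure technical spread only.

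The ErbB receptors are receptor tyrosine kinases of epithelial cells that work as dimers. EGFR binds amphiregulin (Areg), TGF-alpha (Tgfa) and EGF, and both EGFR and ERBB4 bind epiregulin (Ereg), HB-EGF (Hbegf) and betacellulin (Btc). ERBB3, whose own kinase is weak, and ERBB4 bind neuregulin 1 (Nrg1), and ERBB2 has no known ligand and serves as the preferred partner of the others. The ligands are made as membrane proteins and are released by proteases. In the mammary gland, amphiregulin acts downstream of estrogen in duct growth, ERBB4 acts in lactation, and ERBB2 is amplified in a share of human breast cancers.

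The genes lie apart in the genome except for a cluster of ligands. On GRCm38, Egfr (ENSMUSG00000020122) spans chr11:16752203-16918158 and Erbb2 (ENSMUSG00000062312) spans chr11:98412470-98437716, both on the + strand. Erbb3 (ENSMUSG00000018166) spans chr10:128567523-128589652, Erbb4 (ENSMUSG00000062209) chr1:68032186-69108059 and Nrg1 (ENSMUSG00000062991) chr8:31814551-32884029, all on the - strand. Ereg, Areg and Btc share a stretch of 328 kb of chromosome 5 (chr5:91074622-91402994), in which Ereg and Areg lie on the + strand and Btc on the - strand. Tgfa (ENSMUSG00000029999) spans chr6:86195223-86275719 on the + strand, and Hbegf is ENSMUSG00000024486.

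Promoter sequences from RefSeq (GRCm38.p6, 250 bases before to 50 after the annotated start) were at hand for 6 of the members, and 4 are shown. Egfr and Erbb2 are receptors that were higher in D2.1 in every setting, and Tgfa is a ligand that was lower. Areg is the ligand that passed the test in opposite directions in culture and in BALB/c tumors. Both Areg calls were lost in most fits that left out a library. All 4 lie on the + strand, at chr11:16751953-16752252 for Egfr, chr11:98412234-98412533 for Erbb2, chr6:86194972-86195271 for Tgfa and chr5:91139349-91139648 for Areg. Capitals mark exact matches, on either strand, to a GC box (GGGCGG), a cAMP response element (TGACGTCA), a TATA box (TATAAA) or an AP-1 site (TGANTCA).
Egfr: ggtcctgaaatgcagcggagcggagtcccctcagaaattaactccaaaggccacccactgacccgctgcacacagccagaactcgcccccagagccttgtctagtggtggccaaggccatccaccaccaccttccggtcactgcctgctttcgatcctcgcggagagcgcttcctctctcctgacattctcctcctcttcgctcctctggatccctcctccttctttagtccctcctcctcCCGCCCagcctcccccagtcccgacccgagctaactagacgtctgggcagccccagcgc
Erbb2: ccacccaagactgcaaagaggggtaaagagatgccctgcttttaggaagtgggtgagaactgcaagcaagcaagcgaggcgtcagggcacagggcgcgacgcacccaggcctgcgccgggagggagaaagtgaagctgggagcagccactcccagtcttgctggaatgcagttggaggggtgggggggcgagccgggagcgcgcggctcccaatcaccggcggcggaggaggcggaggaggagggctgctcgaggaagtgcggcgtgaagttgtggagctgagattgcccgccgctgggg
Tgfa: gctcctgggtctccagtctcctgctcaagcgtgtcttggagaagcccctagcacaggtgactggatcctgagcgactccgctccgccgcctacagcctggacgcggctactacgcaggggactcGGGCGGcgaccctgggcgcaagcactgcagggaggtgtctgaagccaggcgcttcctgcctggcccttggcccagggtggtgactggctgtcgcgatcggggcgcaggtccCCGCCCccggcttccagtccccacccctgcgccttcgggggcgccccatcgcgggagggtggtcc
Areg: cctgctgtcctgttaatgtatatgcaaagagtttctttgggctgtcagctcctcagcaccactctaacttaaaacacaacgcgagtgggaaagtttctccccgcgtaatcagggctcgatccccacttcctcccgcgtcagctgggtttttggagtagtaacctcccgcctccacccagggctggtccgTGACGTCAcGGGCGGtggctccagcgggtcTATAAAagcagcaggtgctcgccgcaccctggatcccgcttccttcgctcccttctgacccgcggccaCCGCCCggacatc
The Egfr window held 1 GC box, the Tgfa window 2 and the Areg window 2, while the Erbb2 window held 0. A GC box was found in 35.7% of 32851 promoter windows of the same length. The Areg window alone among the 6 held the cAMP response element, a sequence found in 1.79% of all windows, and the TATA box, found in 13.6%. None of the 6 held the AP-1 letters, which 7.81% of all windows did. The windows were GC-rich, with 62.3% G and C in Egfr, 66% in Erbb2, 70.7% in Tgfa and 59.3% in Areg, against a median of 52.7%. These matches describe the letters only, since no binding was measured.

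Library totals ran from 16837260 to 24818234 counts in culture and from 13566949 to 18355153 in tumors, at which 3 counts equal 0.121 to 0.221 CPM (a gene's count scaled to the library's total of reads). Such limits cover counting error only. Levels are given below as CPM, scaled by edgeR's TMM method within the table of cells or within that of tumors, and the 2 tables were not tested against each other. Among mammary epithelial markers, Krt8 was present in every library, at 29.2 to 3404 CPM in culture and 134 to 944 CPM in tumors, whereas Epcam stayed at 0.708 CPM or less in culture. The summed epithelial markers (Krt8, Krt18, Krt14, Cdh1 and Epcam) ranged from 2345 to 4649 CPM in D2.1 cells and from 130 to 340 CPM in D2A1 cells. In tumors this sum overlapped between the lines, at 359 to 1232 CPM in D2.1 and 443 to 881 CPM in D2A1, but single markers went opposite ways. In BALB/c tumors, Krt18 held 9.34 to 57.5 CPM in D2.1 and 301 to 418 CPM in D2A1. Krt14 there held 24.7 to 140 and 1.45 to 2.05 CPM, and Krt8 held 291 to 409 and 134 to 231 CPM. Cdh1 held 16.3 to 30.5 and 5.74 to 8.32 CPM, and Epcam overlapped. In SCID-beige tumors, Krt18 was again lower and Krt14 higher in D2.1 without overlap. Among the D2.1 tumors of BALB/c mice, 2 stood apart, with milk protein transcripts summing to 500 CPM in replicate 1 and to 60.3 CPM in replicate 4, and skin transcripts summing to 57.8 and 171 CPM. In replicate 4 the milk sum was nearly all Glycam1, at 59.5 CPM, and 4 of the 7 milk markers were at 0. The other tumors held at most 5.97 CPM of milk and 6.77 CPM of skin transcripts, so the BALB/c comparison is also given without these 2. In whole tumors, fewer cells of a type and less RNA per cell cannot be told apart.

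Markers of host cells differed between the tumor groups. The 4 endothelial markers (Pecam1, Cdh5, Kdr and Emcn), none at 0 in any tumor, summed to 72.5 to 120 CPM in D2.1 and 191 to 254 CPM in D2A1 tumors of BALB/c mice, and to 49.9 to 83.5 CPM and 171 to 249 CPM in SCID-beige mice, so D2.1 lay below D2A1 in both hosts. The 5 leukocyte markers (Ptprc, Cd3e, Cd8a, Cd4 and Ncr1) summed to 174 to 210.7 CPM in D2.1 and 35.8 to 88.4 CPM in D2A1 tumors of BALB/c mice, and to 39.3 to 112 CPM and 14.5 to 37.2 CPM in SCID-beige mice, where Cd3e held 0 to 7 counts. D2.1 thus lay above D2A1 in both hosts. Sums of adipocyte markers (0.345 to 223 CPM) and skeletal muscle markers (1.44 to 342 CPM) overlapped between the lines in each host. In culture, the endothelial and leukocyte sums were at most 0.761 and 0.373 CPM. The part of these cells in the tumor differences given below was not tested.

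**Figure D1:**
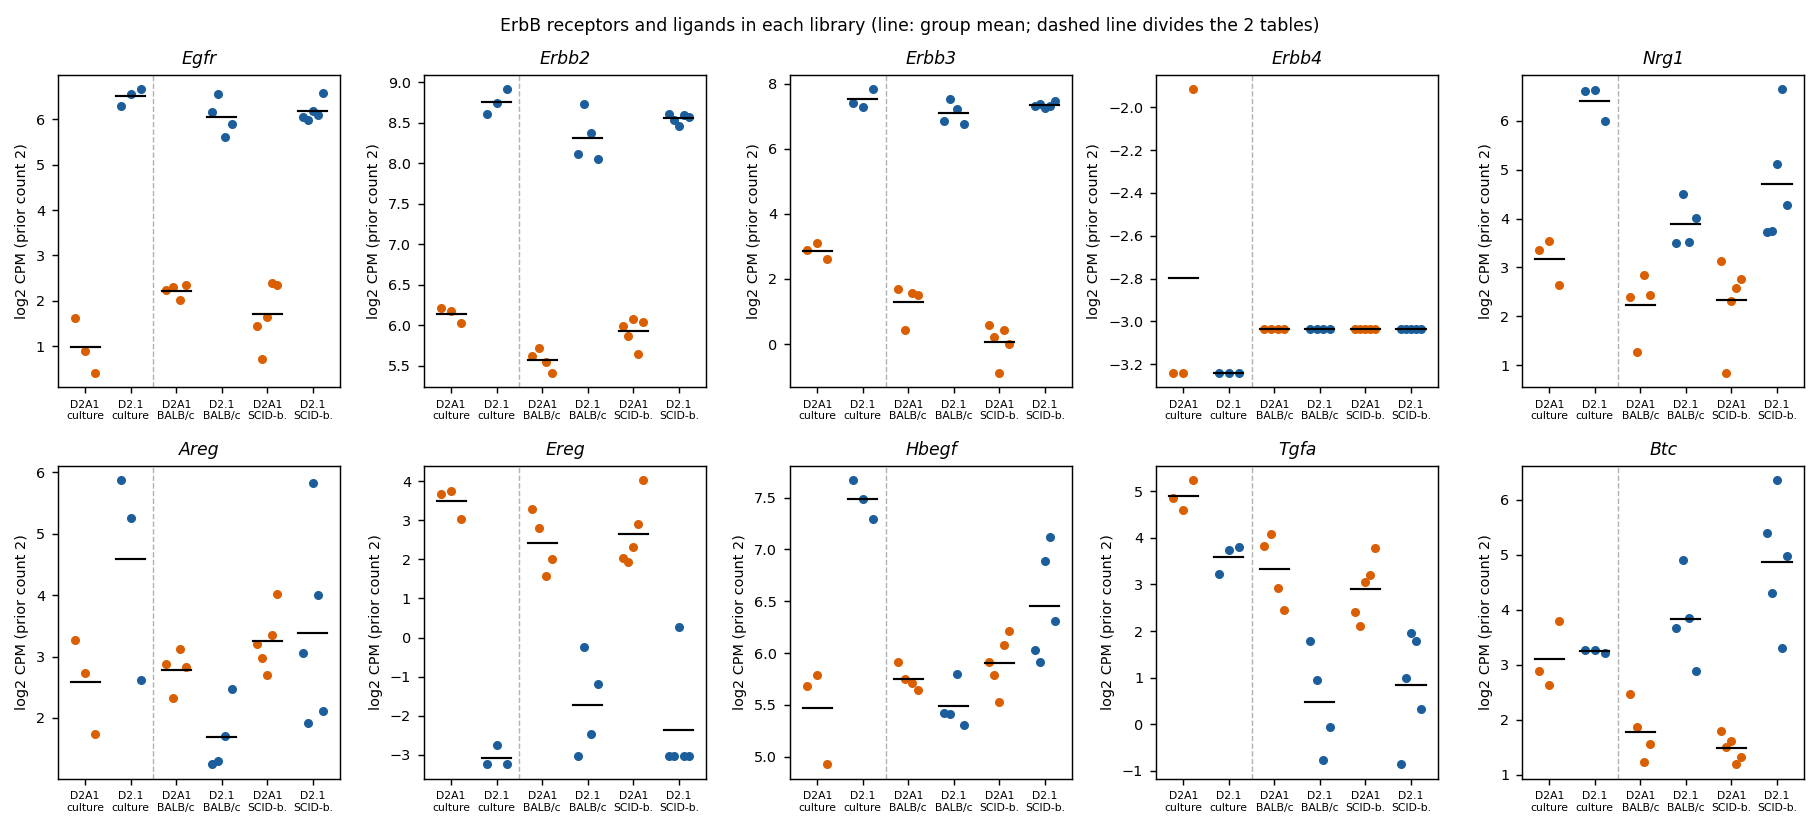
Each panel plots one receptor or ligand, with log2 CPM (prior count 2) on the y axis and the 6 groups on the x axis, where a point is a library (orange, D2A1, and blue, D2.1), a bar is the group mean and the dashed line separates culture from tumors. Egfr, Erbb2 and Erbb3 lay higher in every D2.1 library than in every D2A1 library of the same setting, Ereg and Tgfa lay lower, and Erbb4 stayed at the floor.

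In culture and in both hosts, the transcripts of 3 receptors were higher in D2.1 than in D2A1. Among them, Egfr had the largest fold difference in culture and Erbb3 the largest in tumors. The fourth receptor, Erbb4, had reads in 1 of the 24 libraries.

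Egfr encodes the receptor for EGF and most of the ligands studied here. In cultured D2A1 cells it measured 3, 1.76 and 1.22 CPM in replicates 1 to 3, and in cultured D2.1 cells 78.4, 93.4 and 102 CPM. The ranges were far apart, and the fitted log2 fold change was 5.52 ± 0.29 (SE), a 45.9-fold difference (edgeR quasi-likelihood test, adjusted p = 2.29e-06). Egfr in BALB/c tumors measured 4.58, 4.83, 3.92 and 4.99 CPM in D2A1 and 71.1, 94.1, 48.5 and 59.6 CPM in D2.1. In those of SCID-beige mice, it measured 2.61, 1.53, 3, 5.13 and 4.98 CPM in D2A1 and 66.5, 62.8, 71.9, 68.1 and 95.8 CPM in D2.1. No D2A1 tumor came near the lowest D2.1 tumor in either host. The log2 fold changes were 3.90 ± 0.24 in BALB/c mice (adjusted p = 2.18e-06) and 4.40 ± 0.31 in SCID-beige mice (adjusted p = 2.63e-07, both edgeR).

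Erbb2 encodes the receptor without a known ligand. It measured 74.3, 72.3 and 65.4 CPM in cultured D2A1 cells and 390, 428 and 484 CPM in cultured D2.1 cells. For tumors in BALB/c mice, the D2A1 values were 49.1, 52.6, 46.5 and 42.5 CPM and the D2.1 values 277, 425, 330 and 265 CPM. For tumors in SCID-beige mice, the D2A1 values were 63.4, 58.2, 67.5, 50.1 and 65.6 CPM and the D2.1 values 390, 371, 351, 387 and 379 CPM. Erbb2 was thus well above the floor in D2A1 too, and the groups did not overlap. The fold difference was 6.14 in culture (log2 2.62 ± 0.14, adjusted p = 2.01e-06), 6.83 in BALB/c mice (2.77 ± 0.18, adjusted p = 2.85e-06) and 6.17 in SCID-beige mice (2.63 ± 0.13, adjusted p = 2.01e-08, all edgeR). Its spread was smallest in the D2.1 tumors of SCID-beige mice, where the SD was 4.18% of the mean.

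Erbb3 encodes the neuregulin receptor with a weak kinase. It measured 7.32, 8.5 and 6.07 CPM in cultured D2A1 cells and 171, 157 and 229 CPM in cultured D2.1 cells. Among BALB/c tumors, the D2A1 values were 3.13, 1.24, 2.84 and 2.72 CPM, or 20 to 54 counts, and the D2.1 values were 115, 186, 148 and 109 CPM. In SCID-beige tumors, D2A1 held 1.38, 1.04, 0.418, 1.24 and 0.882 CPM, or 6 to 20 counts, and D2.1 held 160, 164, 151, 158 and 177 CPM. The D2A1 tumors lay close to the limit of detection, so the tumor folds rest on few D2A1 reads. The log2 fold change was 4.67 ± 0.21 in culture (adjusted p = 1.08e-06), 5.81 ± 0.32 in BALB/c mice (adjusted p = 1.24e-06) and 7.34 ± 0.26 in SCID-beige mice (adjusted p = 1.02e-09, all edgeR).

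Erbb4 encodes a receptor for neuregulins and for several EGFR ligands. It had 0 counts in all 18 tumors and in 5 of the 6 cell libraries, and 3 counts in D2A1 cells replicate 3, or 0.16 CPM. A level under 3 counts per library could be missed in a single library at this depth, and Erbb4 was not tested.

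The ligands did not move as one group. In cultured D2.1 cells, Nrg1, Areg and Hbegf were higher and Ereg and Tgfa were lower than in D2A1. In tumors, Nrg1 and Btc were higher in D2.1 and Ereg and Tgfa lower in both hosts, while Areg was lower in BALB/c mice. The calls of Areg in culture and in BALB/c mice did not hold in most fits that left out a library.

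Nrg1 encodes neuregulin 1, the ligand of ERBB3 and ERBB4. It measured 10.1, 11.6 and 6.12 CPM in cultured D2A1 cells and 97, 98.8 and 63.8 CPM in cultured D2.1 cells. The log2 fold change in culture was 3.23 ± 0.27 (edgeR, adjusted p = 2.79e-05). D2A1 tumors in BALB/c mice held 5.16, 2.29, 7.06 and 5.27 CPM and D2.1 held 11.2, 22.5, 11.4 and 15.9 CPM, which did not overlap (log2 fold change 1.63 ± 0.37, edgeR adjusted p = 0.0066). In SCID-beige tumors, D2A1 held 8.59, 1.67, 4.88, 5.81 and 6.68 CPM and D2.1 held 13.1, 13.4, 34.7, 101 and 19.2 CPM. The D2.1 tumor replicate 4 stood 6.18-fold above the median of the other 4, and the log2 fold change was 2.71 ± 0.59 with it (edgeR adjusted p = 0.00305) and 1.82 without it (adjusted p = 0.00472). Reads of Nrg1 and of Gm26578, a noncoding gene on the opposite strand that shares 482 exon bases with it, cannot be told apart, because no strand setting is given.

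Btc encodes betacellulin, a ligand of EGFR and ERBB4. In culture it measured 7.26, 6.07 and 13.8 CPM in D2A1 and 9.57, 9.6 and 9.16 CPM in D2.1, and the log2 difference of 0.06 ± 0.30 did not pass the test (edgeR adjusted p = 0.884). Tumors in BALB/c mice held 5.45, 3.53, 2.23 and 2.83 CPM in D2A1 and 12.6, 29.8, 14.3 and 7.32 CPM in D2.1. Tumors in SCID-beige mice held 3.37, 2.71, 2.93, 2.16 and 2.4 CPM in D2A1 and 42.1, 19.6, 82.1, 9.78 and 31.5 CPM in D2.1. Every D2.1 tumor was thus above every D2A1 tumor of the same host, although the D2.1 tumors differed several-fold among themselves. The log2 fold changes were 2.19 ± 0.45 (adjusted p = 0.00392) and 3.78 ± 0.48 (adjusted p = 5.29e-05, both edgeR). Whether the line difference in tumors was larger than that in culture was not tested, since the tables were normalized separately.

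Hbegf encodes HB-EGF, a ligand of EGFR and ERBB4 that macrophages also make. In culture it measured 51.2, 55.3 and 30.3 CPM in D2A1 and 203, 179 and 157 CPM in D2.1, a log2 fold change of 1.98 ± 0.23 (edgeR adjusted p = 0.000166). D2A1 tumors in BALB/c mice held 60.1, 53.6, 52.3 and 49.8 CPM and D2.1 held 42.7, 42.5, 55.7 and 39.5 CPM, and the log2 difference of -0.25 ± 0.16 did not pass the test (edgeR adjusted p = 0.259). D2A1 tumors in SCID-beige mice held 60.1, 55.3, 46, 67.3 and 74.2 CPM and D2.1 held 65.3, 60.3, 118, 139 and 79.4 CPM. The log2 difference of 0.62 ± 0.24 there missed the threshold with edgeR (adjusted p = 0.0631), passed it with DESeq2 (adjusted p = 0.0474) and in one fit of all tumors (0.61, adjusted p = 0.0267), and passed it with edgeR without D2.1 replicate 1 (0.69, adjusted p = 0.0482) or replicate 2 (0.71, adjusted p = 0.0383). Macrophage markers (Adgre1, Csf1r, Cd68, Mrc1 and Lyz2) summed to 1123 to 2448 CPM in D2.1 tumors and 1224 to 2401 CPM in D2A1 tumors, and to at most 9.64 CPM in culture. Adgre1 alone was higher in D2.1 without overlap. It held 90.3 to 159 against 60.3 to 89.8 CPM in BALB/c mice, and 86.5 to 121 against 25.5 to 68.1 CPM in SCID-beige mice. Csf1r, Cd68, Mrc1 and Lyz2 overlapped between the lines in each host. The part of macrophages in the tumor levels of Hbegf was not tested.

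Areg encodes amphiregulin. In culture, D2A1 measured 9.51, 6.52 and 3.25 CPM and D2.1 measured 58.6, 38.2 and 6.05 CPM. D2.1 replicate 3 fell within the D2A1 range, so the groups overlapped. The log2 fold change was 2.42 ± 0.71 (edgeR adjusted p = 0.0228), and the call was lost in 4 of the 6 fits that left out a library (D2A1 replicate 2 or 3, or D2.1 replicate 1 or 2, adjusted p = 0.0522 to 0.0865). In BALB/c tumors, D2A1 held 7.24, 4.89, 8.57 and 6.99 CPM and D2.1 held 2.25, 2.35, 3.13 and 5.46 CPM, with overlap between D2.1 replicate 4 and D2A1 replicate 2. The log2 fold change of -1.07 ± 0.35 passed narrowly (edgeR adjusted p = 0.0399). The call was lost without D2.1 replicate 1, 2 or 3 or D2A1 replicate 1, 3 or 4 (adjusted p = 0.0714 to 0.0977), and in one fit of all tumors (adjusted p = 0.220). In SCID-beige tumors, D2A1 held 9.08, 7.71, 6.34, 10.1 and 16.1 CPM and D2.1 held 8.16, 3.64, 56.8, 15.9 and 4.22 CPM. The difference of 0.86 ± 0.63 did not pass the test (edgeR adjusted p = 0.332), and it turned to -0.31 without D2.1 replicate 3 (adjusted p = 0.626).

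Ereg encodes epiregulin, and its gene lies next to Areg on chromosome 5. In culture it measured 12.6, 13.4 and 8.09 CPM in D2A1, against 0, 1 and 0 counts in D2.1. Taken against 3 counts, Ereg was at least 77.8-fold lower in D2.1 cells (edgeR adjusted p = 4.95e-06). Among BALB/c tumors, D2A1 held 9.68, 6.81, 2.84 and 3.88 CPM and D2.1 held 0, 0.723, 0.058 and 0.321 CPM, at most 12 counts. Among SCID-beige tumors, D2A1 held 3.99, 3.68, 4.88, 7.41 and 16.2 CPM, and among the D2.1 tumors 4 held 0 counts and replicate 3 held 19, or 1.09 CPM. The log2 fold changes were -4.38 ± 0.84 (adjusted p = 0.00277) and -4.95 ± 1.01 (adjusted p = 0.00206, both edgeR). In BALB/c mice it was -5.52 without D2.1 replicate 2 (adjusted p = 0.000713), and in SCID-beige mice the size rested on D2.1 replicate 3, without which the fit gave -9.83 (adjusted p = 5.05e-05) against tumors that all held 0 counts. The antisense gene Gm19610 shares 141 exon bases with Ereg, and its reads cannot be told from those of Ereg.

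Tgfa encodes TGF-alpha, a ligand of EGFR. In culture it measured 28.9, 24.1 and 37.7 CPM in D2A1 and 9.25, 13.3 and 13.9 CPM in D2.1, a log2 fold change of -1.31 ± 0.22 (edgeR adjusted p = 0.00149). In BALB/c tumors, D2A1 held 14.1, 16.9, 7.42 and 5.38 CPM and D2.1 held 3.32, 1.81, 0.464 and 0.834 CPM. In SCID-beige tumors, D2A1 held 5.23, 4.17, 8.15, 9.14 and 13.7 CPM and D2.1 held 0.43, 1.88, 3.74, 3.34 and 1.13 CPM. The lines did not overlap in any setting. The log2 fold changes in tumors were -2.75 ± 0.60 (adjusted p = 0.00552) and -1.92 ± 0.51 (adjusted p = 0.0105, both edgeR), and the former was -3.39 without D2.1 replicate 1 (adjusted p = 0.00288). The unclassified gene Gm43917 on the opposite strand shares 118 exon bases with Tgfa.

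**Figure D2:**
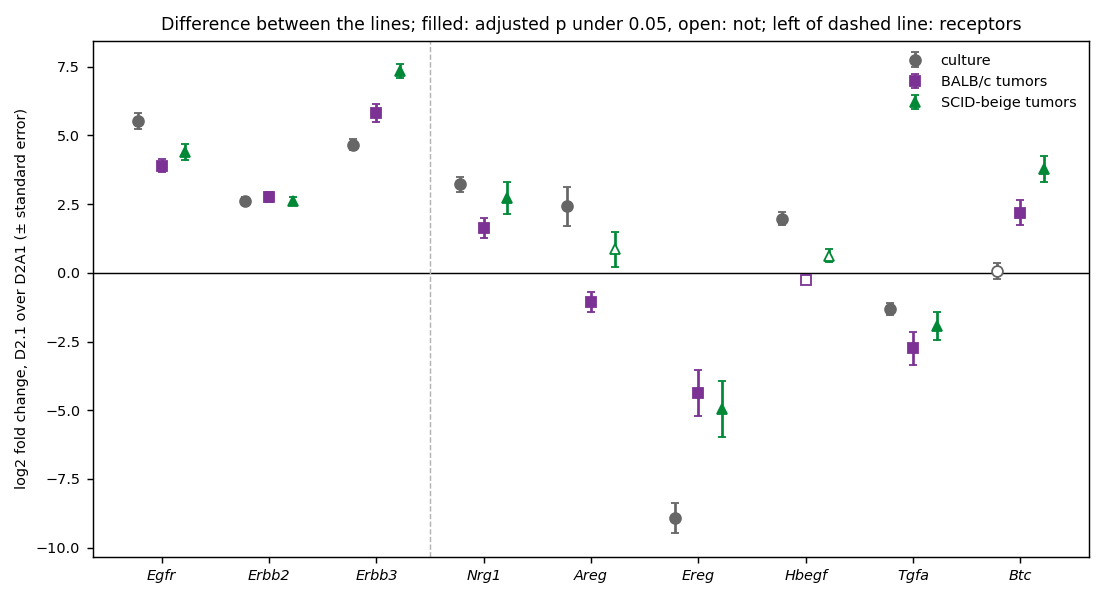
The y axis gives the fitted log2 fold change of D2.1 over D2A1, with its standard error as the bar, for the 9 tested receptors and ligands on the x axis in culture (circles), BALB/c tumors (squares) and SCID-beige tumors (triangles), with filled symbols for an adjusted p under 0.05. The receptors lie between 2.62 and 7.34 in all 3 settings, Ereg and Tgfa lie below 0, and Areg, Hbegf and Btc change side or call between settings.

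Counted together, 8 of the 9 members tested passed the threshold in culture, 6 higher and 2 lower in D2.1. Over all 12489 genes tested, 44.9% passed, 24.2% higher and 20.7% lower. In BALB/c tumors, 8 of 9 passed, 5 higher and 3 lower, against 32.6% of 14953 genes, 16.8% higher and 15.8% lower. In SCID-beige tumors, 7 of 9 passed, 5 higher and 2 lower, against 32.1% of 14355 genes, 17.2% higher and 14.8% lower. All 8 also passed in BALB/c tumors without the 2 tumors that held milk or skin transcripts. The median log2 fold change of the members was 2.42, 1.63 and 2.63 in the 3 settings, beside -0.02, -0.02 and 0.02 over all genes tested. Exact permutation tests of single members (2-sided, on log2 CPM) cannot go below p = 0.1 for 3 against 3 cells, and 7 of 9 members reached that floor. Areg had an exact permutation p = 0.3 in culture and Btc p = 0.7. The same exact permutation test gave p = 0.0286, its smallest possible value, for the 7 members without overlap in BALB/c tumors. In SCID-beige tumors the exact permutation p was 0.00794, again the smallest possible, for the 7 without overlap, while Areg had p = 0.0571 and 0.889 and Hbegf p = 0.114 and 0.0794 in the 2 hosts. These permutation p-values are unadjusted, and how many of all genes lack overlap was not counted.

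Between the hosts, no member passed the threshold in either line. Of the 8 members tested in D2.1 tumors, 0 passed between BALB/c and SCID-beige mice, where 0.891% of all genes did. At an unadjusted p under 0.05 there were 3 (Hbegf, Areg and Btc, all with the lower fitted level in BALB/c mice), beside 1489 of all 14929 genes tested. DESeq2 called 1 member, Hbegf. Hbegf was the member whose D2.1 tumors did not overlap between hosts, at 39.5 to 55.7 CPM in BALB/c mice and 60.3 to 139 CPM in SCID-beige mice. Its log2 fold change, BALB/c over SCID-beige, was -1.01 ± 0.26 (edgeR adjusted p = 0.105, DESeq2 adjusted p = 0.00929). The exact permutation p for Hbegf was 0.0159 unadjusted and 0.143 after Benjamini-Hochberg adjustment over 9 members. In D2A1 tumors, 0 of 9 members passed, with 1.17% of all genes called, and DESeq2 called 0. In these tumors, 2 members were at an unadjusted p under 0.05 (Erbb2 and Erbb3), beside 1472 of all 14572 genes tested. There, Erbb3 was 1.32 ± 0.42 higher in BALB/c mice on the log2 scale (edgeR adjusted p = 0.206) and passed in one fit of all tumors (adjusted p = 0.0217). The leukocyte markers also differed between hosts in D2.1 tumors (174 to 210.7 CPM in BALB/c and 39.3 to 112 CPM in SCID-beige mice), and their part in the host values was not tested. The same D2.1 and D2A1 tumors enter the line and the host comparisons, which are therefore not independent.

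Whether the difference between the lines depended on the host was tested as an interaction over all 18 tumors. None of the 9 members passed, with 0.0187% of genes called. At an unadjusted p under 0.05 there were 4 (Erbb3, Hbegf, Btc and Areg), beside 1355 of all 16036 genes tested, and DESeq2 called 1 member, Erbb3. The interaction for Erbb3 was -1.54 ± 0.36 (edgeR adjusted p = 0.182, DESeq2 adjusted p = 0.0167), which is a smaller line difference in BALB/c than in SCID-beige mice, and it rests on the 20 to 54 and 6 to 20 counts of the D2A1 tumors. For the remaining members no dependence on host was detectable with these numbers of tumors.

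**Figure D3:**
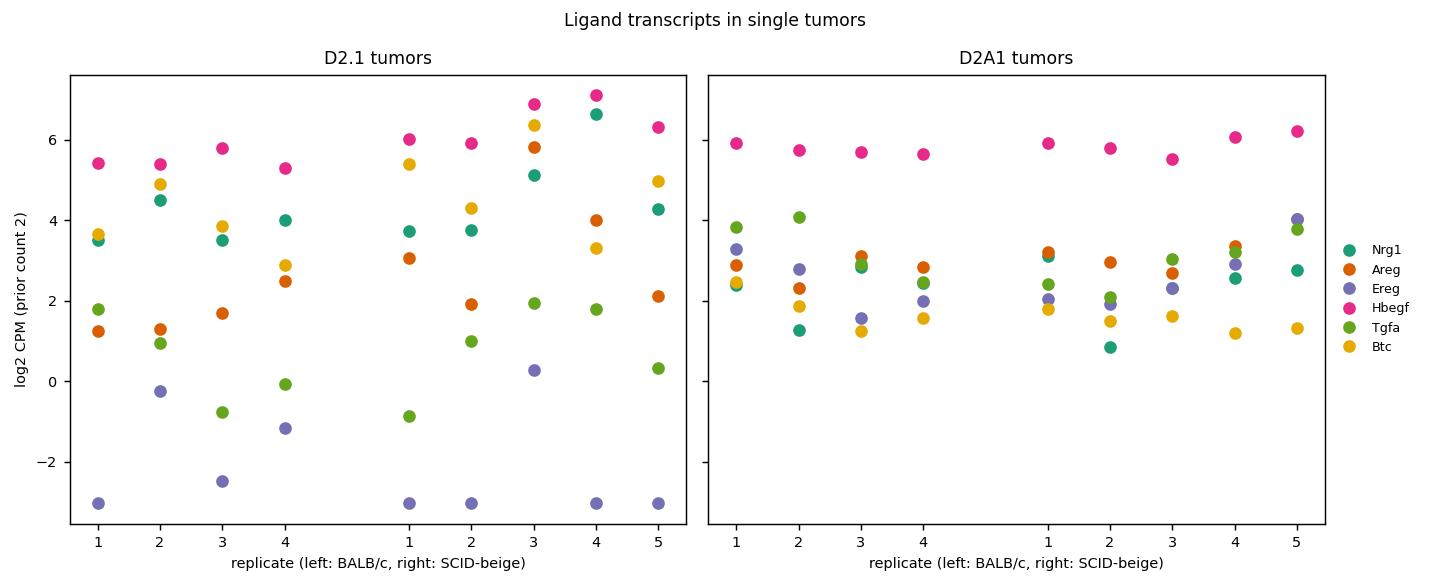
Each point is one ligand in one tumor, with log2 CPM (prior count 2) on the y axis and the replicate on the x axis, for D2.1 tumors (left panel) and D2A1 tumors (right panel), BALB/c to the left and SCID-beige to the right in each. Areg and Btc were highest in D2.1 SCID-beige replicate 3 and Nrg1 and Hbegf in replicate 4, and CPM is not scaled by gene length, so only points of the same ligand can be compared.

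Among the 5 D2.1 tumors of SCID-beige mice, the ligands varied more than the receptors. The SD was 126% of the mean for Areg, 102% for Nrg1 and 75.5% for Btc, against 18% for Egfr and 5.84% for Erbb3. Replicate 3 held 56.8 CPM of Areg, 9.17-fold above the median of the other 4, and 82.1 CPM of Btc. Replicate 4 held 101 CPM of Nrg1 and 139 CPM of Hbegf, but the lowest Btc of the group at 9.78 CPM. So the tumor with the most Areg and Btc was not the one with the most Nrg1 and Hbegf. Replicate 4 also held the most Krt8 of the group, at 944 CPM against 276 to 463 CPM, and replicate 3 the most Krt14, at 335 CPM against 63.4 to 83.9 CPM. Macrophage markers summed highest in replicate 3 (2448 CPM) and lowest in replicate 4 (1123 CPM). Replicate 4 also had the lowest leukocyte sum (39.3 CPM) and the highest skeletal muscle sum (255 CPM) of the group. Whether any of these has a part in the ligand levels was not tested.

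Levels of different genes can be compared only per length, as FPKM (counts scaled to gene length and library total), and only within a table. In cultured D2.1 cells, Erbb2 was the most abundant member at 83.2 ± 14 FPKM (SD, n = 3), followed by Hbegf at 72.2 ± 7.2 FPKM, and the difference between them is within their spread. In cultured D2A1 cells, Hbegf had 20 ± 5.3 FPKM and Erbb2 14.7 ± 0.55 FPKM, and their libraries overlapped (13.9 to 23.8 and 14.2 to 15.3 FPKM). In D2.1 tumors, Erbb2 led in both hosts, at 97.7 ± 22 FPKM in BALB/c mice (n = 4) and 112 ± 2.7 FPKM in SCID-beige mice (n = 5). In D2A1 tumors, Hbegf led at 23.5 ± 2.6 and 25.8 ± 5.0 FPKM, ahead of Erbb2 at 15 ± 1.5 and 18.8 ± 2.4 FPKM. With the length of all annotated exons, Hbegf was 11.5 ± 1.3 and 12.7 ± 2.5 FPKM there. Erbb2 was then 9.46 ± 0.92 and 11.8 ± 1.5 FPKM, and the ranges of mean ± SD overlapped in both hosts. The gene length behind FPKM differed between the tables, at 10208 bases for Egfr in the table of cells and 2955 in that of tumors. With the lengths of the cell table, Egfr in D2.1 BALB/c tumors would be 6.61 FPKM and not 22.8 FPKM, and rank 5 and not rank 3 among the members, while Erbb2 would be 63.9 FPKM and still rank 1.

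By mean level in tumors, the 2 D2.1 groups came first for Egfr, Erbb2, Erbb3, Nrg1 and Btc, and the 2 D2A1 groups came first for Ereg and Tgfa. For these 7 genes the groups of the same line overlapped between hosts, and the nearest groups of the 2 lines did not overlap. How many of all genes show such an order was not counted. For Areg and Hbegf, all neighbouring groups in the order overlapped.

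A list of 35 further genes of the pathway was described alongside. In culture, 17 of 32 tested passed, 14 higher and 3 lower in D2.1, and the median log2 fold change was 0.45. In BALB/c tumors, 13 of 32 passed (8 higher, 5 lower), and in SCID-beige tumors 13 of 31 (8 higher, 5 lower), with medians of 0.01 and 0.10. The shares of 53.1%, 40.6% and 41.9% stand beside the 44.9%, 32.6% and 32.1% of all genes tested.

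The adaptor Grb7, which binds ERBB2 and lies near it, had the largest rise of the list in culture (2.99 ± 0.86, adjusted p = 0.021) and in BALB/c tumors (2.74 ± 0.76, adjusted p = 0.0189, both edgeR). It rested on few reads, 11 to 37 counts in D2.1 cells and 0 to 8 in D2A1 cells. Its call was lost in culture without D2A1 replicate 1 or D2.1 replicate 1 or 2 (adjusted p = 0.0685 to 0.0737), and in BALB/c tumors without D2.1 or D2A1 replicate 1 (adjusted p = 0.0587 and 0.0596) or without the 2 tumors with milk or skin transcripts (adjusted p = 0.128). Without D2A1 replicate 2 or 3 the fitted change in culture was 5.34 or 2.39. Grb7 did not pass the expression filter in SCID-beige tumors.

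Among the inhibitors of the receptors and of their signal, Lrig3, which belongs to the LRIG family of ErbB regulators, rose in D2.1 by 1.15 ± 0.15 in culture, 2.39 ± 0.32 in BALB/c tumors and 2.03 ± 0.18 in SCID-beige tumors on the log2 scale (edgeR adjusted p = 0.000361, 0.000329 and 1.97e-06). Of the Sprouty genes, whose products restrain signalling from receptor kinases to ERK, Spry1 and Spry2 went opposite ways in tumors. Spry2 rose by 1.80 ± 0.19 in BALB/c and 1.90 ± 0.24 in SCID-beige tumors, whereas Spry1 fell by 1.67 ± 0.29 and 1.63 ± 0.26 (all adjusted p at most 0.00166, edgeR). Spry4, named after its values were seen, rose in D2.1 by 1.58 ± 0.19 in culture and 0.74 ± 0.20 in SCID-beige tumors (edgeR adjusted p = 0.000239 and 0.0113), and its difference of 0.46 ± 0.21 in BALB/c tumors did not pass (adjusted p = 0.116). Over the 10 inhibitors tested, 4 rose and 1 fell in culture, 2 rose and 1 fell in BALB/c tumors, and 3 rose and 2 fell in SCID-beige tumors. The called shares of 50%, 30% and 50% stand beside 44.9%, 32.6% and 32.1% of all genes tested.

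Genes that respond to ERK, the kinase downstream of the receptors, split as well. Dusp4, a phosphatase that acts on MAP kinases, was lower in D2.1 in all 3 settings. It measured 138 to 235 CPM in cultured D2A1 cells and 32.6 to 44 CPM in cultured D2.1 cells, and the log2 fold change was -2.09 ± 0.23 (edgeR adjusted p = 0.000151). In tumors it ran from 77.7 to 272 CPM in D2A1 and from 0.663 to 13.3 CPM in D2.1, with changes of -5.49 ± 0.61 in BALB/c and -4.73 ± 0.68 in SCID-beige mice (adjusted p = 9.07e-05 and 0.000146). Without the 2 tumors with milk or skin transcripts, the BALB/c value was -6.17. The related phosphatase Dusp5 rose by 2.74 ± 0.15 in cultured D2.1 cells (edgeR adjusted p = 2.24e-06) and did not pass with edgeR in tumors, where its changes were 0.62 and 0.25. Egr1, an immediate early transcription factor named after its values were seen, rose in D2.1 by 1.75 ± 0.20, 1.79 ± 0.19 and 1.57 ± 0.29 (edgeR adjusted p = 0.000188, 6.59e-05 and 0.000959). Of the 10 genes in this group, 5 rose and 1 fell in culture, 2 rose and 4 fell in BALB/c tumors, and 3 rose and 2 fell in SCID-beige tumors. Called were thus 60%, 60% and 50% of the group, beside 44.9%, 32.6% and 32.1% of all genes tested.

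Among ligands outside the 10, Nrg2, a further neuregulin, had 17 to 21 counts in cultured D2A1 cells and 0 in every cultured D2.1 library, at least 7.5-fold lower (edgeR adjusted p = 0.000502). Of the 5 genes for ligand release, which include the protease Adam10 and the protease inhibitor Timp3, 3 rose in culture, 2 rose in BALB/c tumors, and 1 rose and 1 fell in SCID-beige tumors. Of the adaptors, 2 of 5 rose in culture, 2 of 5 in BALB/c tumors and 1 of 4 in SCID-beige tumors. The called shares were 60%, 40% and 40% for ligand release and 40%, 40% and 25% for adaptors. Over all genes tested they were 44.9%, 32.6% and 32.1%. Between hosts, 0 listed genes passed in either line with edgeR, and DESeq2 called 1 in D2.1 and 3 in D2A1 tumors. At an unadjusted p under 0.05 with edgeR were 6 of 33 in D2.1 and 3 of 31 in D2A1 tumors. Over all genes these counts were 1489 of 14929 and 1472 of 14572.

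**Figure D4:**
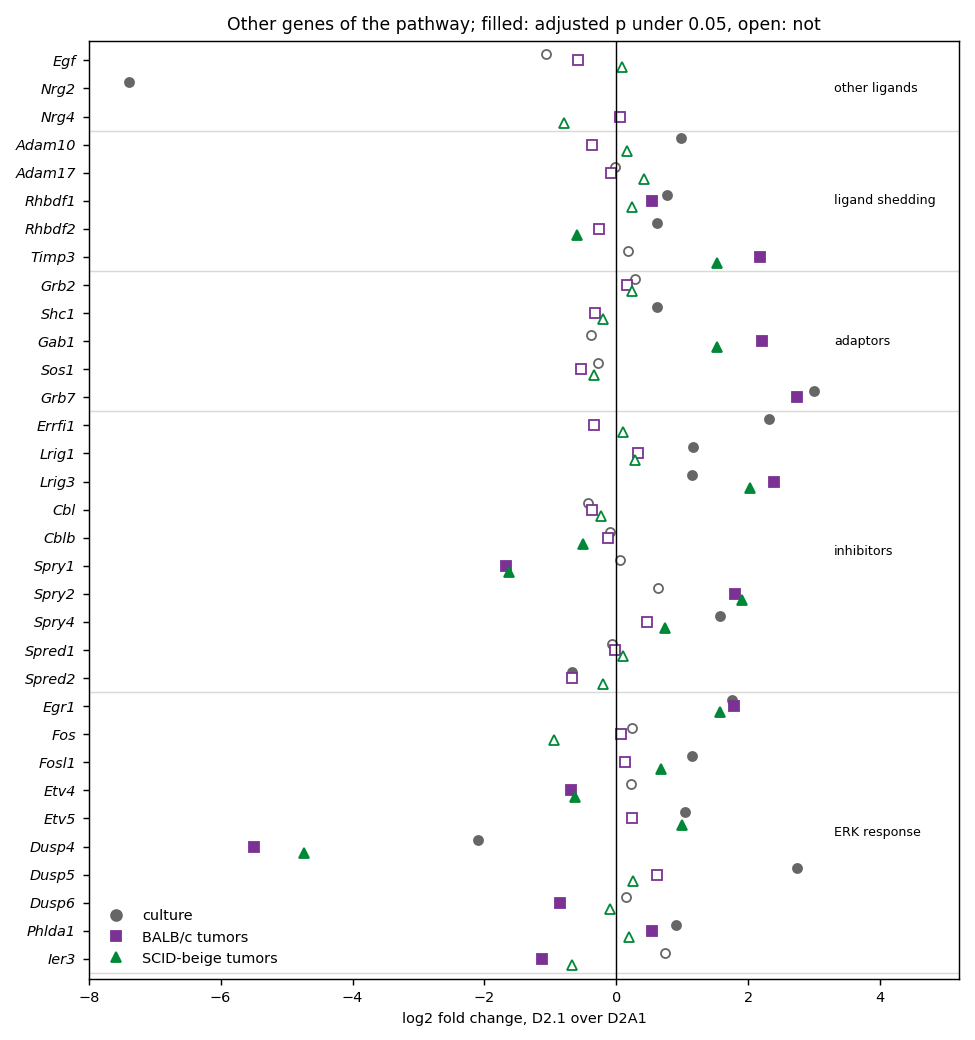
The x axis gives the fitted log2 fold change of D2.1 over D2A1 and each row is a gene of the pathway, grouped by role, with circles for culture, squares for BALB/c tumors, triangles for SCID-beige tumors and filled symbols for an adjusted p under 0.05. Dusp4 lies below 0 and Lrig3 and Egr1 above 0 in all 3 settings, while Spry1 and Spry2 lie on opposite sides in tumors, and the Nrg2 circle is a fitted value against 0 counts.

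The neighbours of Erbb2 on chromosome 11, chosen after the values were seen, did not share its difference evenly. Mien1, which lies next to Erbb2 on the opposite strand and shares 9 exon bases with it, differed by 0.44 ± 0.30, 0.26 ± 0.37 and 0.09 ± 0.33 on the log2 scale in culture, BALB/c and SCID-beige tumors and did not pass the test (edgeR adjusted p = 0.265, 0.640 and 0.866). Pgap3, on the other side, was higher in D2.1 by 0.64, 0.86 and 0.90 (adjusted p = 0.0316, 0.0316 and 0.00149), and Stard3 by 0.68 in culture (adjusted p = 0.00316) with values of -0.02 and 0.03 in tumors. Erbb2 itself differed by 2.62, 2.77 and 2.63. Other neighbours differed by 2.40 or more where they passed the expression filter. Besides Grb7, described above, Ppp1r1b was higher in D2.1 by 5.18 ± 0.79 in culture (edgeR adjusted p = 0.000807). Ikzf3, a lymphocyte transcription factor, was higher by 3.62 ± 0.49 in BALB/c and 4.39 ± 0.69 in SCID-beige tumors (edgeR adjusted p = 0.000329 and 0.000297), where the leukocyte sums were also higher. Tcap, a muscle gene, was higher by 2.40 ± 0.70 in BALB/c tumors (edgeR adjusted p = 0.0237), where skeletal muscle markers summed to 31.7 to 342 CPM in D2.1 and 7.44 to 61.2 CPM in D2A1.

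The pattern over the 18 tumors was also compared with that of 13771 genes, as a description. For members without overlap between the lines, the difference between the lines enters each correlation. Areg and Hbegf overlapped between the lines in both hosts. How much of a correlation the line difference carries was not tested. Nearest to Erbb2 were Ppp1r14c, Patj and Matn2 (Pearson r = 0.992, 0.992 and 0.991), nearest to Egfr were Itga7, Edil3 and Gem (r = 0.985, 0.985 and 0.985), and nearest to Erbb3 were Pheta2, Cpq and Myo5b (r = 0.991, 0.989 and 0.988). Among ligands, Nid2 came nearest to Ereg (r = 0.962), Chek1 to Tgfa (r = 0.956), Prkacb to Btc (r = 0.945), Kcnh7 to Nrg1 (r = 0.893), Nmrk1 to Hbegf (r = 0.857) and Rnps1 to Areg (r = 0.818). After the group means were subtracted, the genes nearest to Hbegf were Pgam1, Slc2a1 and Gys1 (r = 0.875, 0.869 and 0.857), which act in glycolysis, glucose uptake and glycogen synthesis. The nearest genes of the other members then ran from r = 0.803 (Grik5 for Erbb3) to 0.906 (Gpr137b for Tgfa). Each is the highest of 13771 genes, and how high such values run by chance was not tested. For Tgfa, Chek1 stayed among the nearest 3 (r = 0.903), and the gene nearest to Areg was then Id4 (r = 0.854). The tumors share depth and host within each group, and n = 18 throughout.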

How the data were processed

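RNA-seq libraries of cultured cells (6) and whole mammary fat pad tumors (18) were grouped by their labels, with 0 unassigned. The authors sequenced them through Novogene on an Illumina NovaSeq with its standard pipeline or GENAVi, and the labels name STAR and mm10 for processing, while the counter, annotation and strand setting are not given in the sources used here. The deposited counts are reads per gene, not normalized. The deposited FPKM values are those counts divided by gene length and library total, in each table separately. All p-values came from the counts, with edgeR 4.0.16 in R 4.3.3 (TMM, default expression filter, robust quasi-likelihood test) and Benjamini-Hochberg adjustment over all genes tested, at a threshold of 0.05, with only the compared groups in each fit. The interaction used all 4 groups of tumors. A standard error was derived from each log2 fold change and its F statistic, as their size over root F. CPM on the log2 scale used a prior count of 2, and folds against libraries with 3 counts or fewer are bounds against that floor. Exact permutation tests were 2-sided (scipy 1.17.1).

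Genes were matched by Ensembl identifier to GRCm38 symbols, and those without a symbol held 0.0969% of counts in cells and 0.0446% in tumors. Members and lists were chosen with earlier results of these data known. One marker list and 1 marker of another list are not reported here. From the list of 35 pathway genes, the 2 largest called rises and 2 largest called falls of each line comparison are named, and for each member the 3 protein-coding genes of highest correlation over the 18 tumors, in part. Alternatives were DESeq2 1.42.0, its size factors in edgeR, at least 10 counts in total, no filter, the replicate block, one fit of all tumors and each library left out. Leaving out both tumors with milk or skin transcripts, and other gene lengths, were added after seeing the data. The fits were tested on simulated data. Replicate numbers are shared between groups in the labels without a stated meaning. In culture, deviations of same-numbered libraries correlated at 0.332, 0.184 and 0.491 over genes, but D2.1 replicate 1 correlated more with another D2A1 number. Between the lines in tumors these correlations ran from -0.142 to 0.464, and the own number was not the highest in every pair. The main fits, in culture too, took no pairing. The replicate block, which adds the number to the fit, was only an alternative.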

Additional observations from a re-analysis of the deposited data

Results flagged for a closer look

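Among 68 sets of 4 or 5 tumors tested for a single distant tumor (Dixon's test at the 95% level, where chance gives about 1 in 20), 2 had one. Erbb3 was lowest in the D2A1 BALB/c tumor replicate 2, at 1.24 CPM against 2.72 to 3.13 CPM in the other 3, and the gap was 0.845 of the range on the log2 scale. Ereg was highest in the D2.1 SCID-beige tumor replicate 3, with 19 counts against 0 in the other 4, so the gap was the whole range (1).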

How the results depend on the processing

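Over 53 log2 fold changes of members, 819 of 857 alternative values kept the direction and the side of the threshold. The lost and gained calls of Areg, Hbegf and Erbb3 stand in the report, together with the tumors on which Nrg1, Ereg and Tgfa depend. Without any filter, Areg lost its call in culture (2.42, adjusted p = 0.162) and in BALB/c tumors (-1.08, adjusted p = 0.0536), and Hbegf gained one in SCID-beige tumors (0.62, adjusted p = 0.0453), and between hosts in D2.1 tumors (-1.03, adjusted p = 0.0282), both also in one fit of all tumors (0.61, adjusted p = 0.0267, and -1.04, adjusted p = 0.0212). The cause was not tested.

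Values that changed sign were uncalled in both fits. The line difference of Btc in culture ran from -0.16 to 0.50 with each library left out, and that of Areg in SCID-beige tumors from -0.31 to 1.11. Between hosts, Egfr in D2.1 ran from -0.25 to 0.068 and was 0.0084 with the replicate block, Nrg1 in D2A1 ran from -0.40 to 0.080 and was 0.018 with the block, and Ereg in D2A1 ran from -0.68 to 0.22 and was 0.12 with the block. Without the tumors holding milk or skin transcripts, Erbb2 and Erbb3 in D2.1 were 0.037 and 0.069 between hosts. For the interaction, Erbb2 ran from -0.018 to 0.23 and Ereg from -0.55 to 5.50.

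The count of members called between hosts in D2.1 tumors was 1 with DESeq2, without a filter and in one fit of all tumors. It was 1 in D2A1 in one fit of all tumors, and 1 for the interaction with DESeq2. For the pathway list between hosts, it was 1 in D2.1 with DESeq2, and in D2A1 1 with DESeq2's size factors, 3 with DESeq2 and 1 in one fit of all tumors. Over all genes, the 133 called between hosts in D2.1 tumors became 461 with DESeq2, 275 without a filter, 14 with the replicate block, 261 in one fit of all tumors, 11 without the tumors with milk or skin transcripts, and 26 to 314 with each library left out. The 170 in D2A1 became 565 with DESeq2, 0 with the block and 27 to 172 with each library left out. The 3 of the interaction became 6 with DESeq2's size factors, 102 with DESeq2, 7 without a filter, 0 without the tumors with milk or skin transcripts, and 0 to 12 with each library left out. In the line comparisons, all such counts stayed within 1.5 times. With the replicate block, 8, 8 and 7 members passed between the lines, and 0 between hosts and for the interaction. The replicate block changed no call of a member. It brought Spry2 in culture (0.58, adjusted p = 0.0218) and Dusp5 in BALB/c tumors (0.66, adjusted p = 0.00773) past the threshold, and it moved the fitted Ereg difference in SCID-beige tumors to -5.97.

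Levels per length depend on the gene model. In D2.1 BALB/c tumors, Egfr was 5.96 and Erbb2 61.5 FPKM with all exons of the annotation. At 13566949 counts, the smallest total, a level under 0.221 CPM could not be seen.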
